A study of Arabidopsis thaliana with 12 samples.

Results

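The 4 ferritin genes of Arabidopsis thaliana (FER1 to FER4) and 4 genes of the vacuolar iron transporter family (VIT1, VTL1, VTL2 and VTL5) were followed in roots grown with low or normal phosphate. They were selected by gene identifier, as the 8 rows with these names among the 25941 genes of the expression table, and all 8 were found. RNA sequencing had been done on 12 root libraries, 3 in each of 4 groups. The groups were OX3 at low phosphate, OX3 at normal phosphate, wild type at low phosphate and wild type at normal phosphate. OX3 is 1 transgenic line that overexpresses GmVP2, a soybean vacuolar proton-pumping pyrophosphatase, and the wild type is Columbia-0. No label names the promoter that drives the transgene. Both genotypes grew for 10 days on solid MS medium with 6.25 µM phosphate (low) or 1250 µM phosphate (normal). Values are RPKM, reads scaled to the length of the gene and to the total reads of the library, as the authors deposited them.

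Ferritins are plastid proteins that assemble into hollow cages and keep iron as a mineral that does not react with oxygen species. VIT1 moves iron across the vacuolar membrane and is known for loading iron into vacuoles of the seed embryo, and the shorter VTL (vacuolar iron transporter-like) proteins belong to the same family. In Arabidopsis, transcripts of FER1 and of VTL1, VTL2 and VTL5 are known to be abundant when iron is plentiful and scarce when it is not, and the phosphate starvation regulator PHR1 is known to bind the FER1 promoter.

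The 4 ferritin genes each have 8 exons and encode 253 to 259 residues. FER1 (AT5G01600) lies on the minus strand of chromosome 5 at 227953 to 230051, FER2 (AT3G11050) on the plus strand of chromosome 3 at 3463477 to 3465506, FER3 (AT3G56090) on the minus strand of chromosome 3 at 20813904 to 20816035, and FER4 (AT2G40300) on the minus strand of chromosome 2 at 16831109 to 16833294, all in TAIR10.1. The transporter genes are smaller. VIT1 (AT2G01770) has 4 exons on the minus strand of chromosome 2 at 334663 to 336462 and encodes 250 residues. VTL1 (AT1G21140) and VTL2 (AT1G76800) have a single exon each, on the plus strand of chromosome 1 at 7404328 to 7405426 and at 28829243 to 28830278. VTL5 (AT3G25190) has 2 exons on the plus strand of chromosome 3 at 9174398 to 9175866, and the VTL genes encode 196 to 219 residues.

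In coding sequence the closest pairs were FER3 with FER4 (79.3% identical bases) and VTL1 with VTL2 (77.1%), while FER1 was 69.7% to 70.3% identical to the other ferritins. Stretches that recur elsewhere in the genome were rare. Of the stretches of 50 bases within exons, 0% occurred at another place on the chromosomes for 7 of the 8 genes. For VTL1, 4 of 1050 did so. Bases that a member shares with an overlapping gene at the same place are not counted by this search.

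The letters CACGTG, the G-box bound by basic leucine zipper and basic helix-loop-helix factors, stood within 250 genomic bases before the start codon of each ferritin gene and of 0 of the 4 transporter genes. Of 18492 genes, 5.66% held it in that window, which was chosen after the files had been seen. The 30 bases around each match, from the RefSeq genome TAIR10.1 and in the direction of the gene, are shown because the match is common to the whole family, with the G-box in capitals:
FER1 (chr5, 229732 to 229737, minus strand): atatccaccctcCACGTGgatctcaatcca
FER2 (chr3, 3463508 to 3463513, plus strand): ttctcctctttcCACGTGtccaacaaacag
FER3 (chr3, 20816106 to 20816111, minus strand): atcgtatccatcCACGTGtcaacaatccac
FER4 (chr2, 16833358 to 16833363, minus strand): atctcgtacgtaCACGTGtctctcatccgc
Counted from the start codon, the first base of the match lay at position -143 in FER1, -143 in FER2, -127 in FER3 and -149 in FER4. In FER1 and FER2 the match falls in an exon annotated as 5′ UTR, and in FER3 and FER4 it lies before the annotated transcript start. With a window of 250 bases before to 50 bases after the annotated start, FER2, FER3 and FER4 held a G-box, as did 8.78% of all genes, and FER1 did not, since its annotated start lies 457 bases before the start codon.

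FER1 held the other 2 searched motifs as well within 250 bases of its start codon, in the window chosen after the files had been seen. GNATATNC (P1BS, the site recognised by PHR1) began at position -227, and CACGAG (the first 6 letters of the iron-dependent regulatory sequence) at position -190. They do not overlap each other or the G-box. With the matches in capitals, they read:
FER1 P1BS (chr5, 229814 to 229821, minus strand): taacgtggatcGAATATCCtcacgttcaca
FER1 iron-dependent regulatory sequence (chr5, 229779 to 229784, minus strand): cattggatgtagCACGAGgccgccacacgc
All 3 motifs were searched on both strands. P1BS was found in 3.89% and CACGAG in 5.14% of the 18492 windows, and all 3 together in 7 of them (0.0379%), FER1 included. None of VIT1, VTL1, VTL2 and VTL5 held any of the 3. The result depends on the window. In the 1000 bases before the annotated start FER1 held none of the 3 motifs, and FER2 held P1BS and CACGAG, which 20.5% and 18.0% of all genes held there. The FER2 matches began at position -416 for P1BS and at -803 and -710 for CACGAG, counted from the annotated start. A match of letters is a description and no evidence of a bound site.

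The close pairs also share letters just before their annotated starts, but a run of 13 bases is not particular to a close pair. With the window of 250 bases before to 50 bases after the annotated start, FER1 and VTL1 share 13 bases and FER4 and VIT1 share 12. In that window FER3 and FER4 share 13, and VTL1 and VTL2 share 16. The 120 bases before the start of FER3 (chr3:20816036-20816155) and FER4 (chr2:16833295-16833414), both on the minus strand, have a run of 13 bases in common next to the G-box, and those of VTL1 (chr1:7404208-7404327) and VTL2 (chr1:28829123-28829242), both on the plus strand, a run of 15. Each stretch is given because these pairs are compared below, with the shared run, and the G-box where present, in capitals:
FER3: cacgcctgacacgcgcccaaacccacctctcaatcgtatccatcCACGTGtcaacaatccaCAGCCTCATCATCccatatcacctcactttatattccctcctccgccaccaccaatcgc
FER4: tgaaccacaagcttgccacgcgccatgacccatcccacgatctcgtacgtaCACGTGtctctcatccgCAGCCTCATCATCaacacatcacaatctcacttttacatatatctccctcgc
VTL1: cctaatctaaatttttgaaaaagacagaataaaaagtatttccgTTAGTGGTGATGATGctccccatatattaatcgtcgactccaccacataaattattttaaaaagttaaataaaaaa
VTL2: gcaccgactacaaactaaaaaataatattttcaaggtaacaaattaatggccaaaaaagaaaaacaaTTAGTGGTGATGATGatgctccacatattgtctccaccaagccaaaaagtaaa

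Low phosphate changed both families in both genotypes. All 4 ferritins, VTL1 and VTL2 rose at low phosphate and VTL5, the most abundant transporter gene, fell, while VIT1 was barely detected. In OX3, 7 of the 7 members tested passed the test, 6 higher and 1 lower, where 47% of the 18910 genes tested passed (23.3% higher and 23.8% lower). In the wild type the members' counts were the same, where 46% of all genes passed (24.3% higher and 21.6% lower). The test was limma on log2(RPKM + 1) with a Benjamini-Hochberg adjusted p below 0.05, over genes whose mean across all libraries reached 1 RPKM, which left out VIT1. The median log2 difference of the 7 was 0.53 in OX3 and 0.72 in the wild type. Over all tested genes the median was -0.02 in OX3 and 0.02 in the wild type. For each of the 7, the low and normal phosphate libraries did not overlap in either genotype. The same held for 57.4% of all tested genes in OX3 and 53% in the wild type. Such a separation, given below gene by gene, is therefore not particular to the members.

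**Figure D1:**
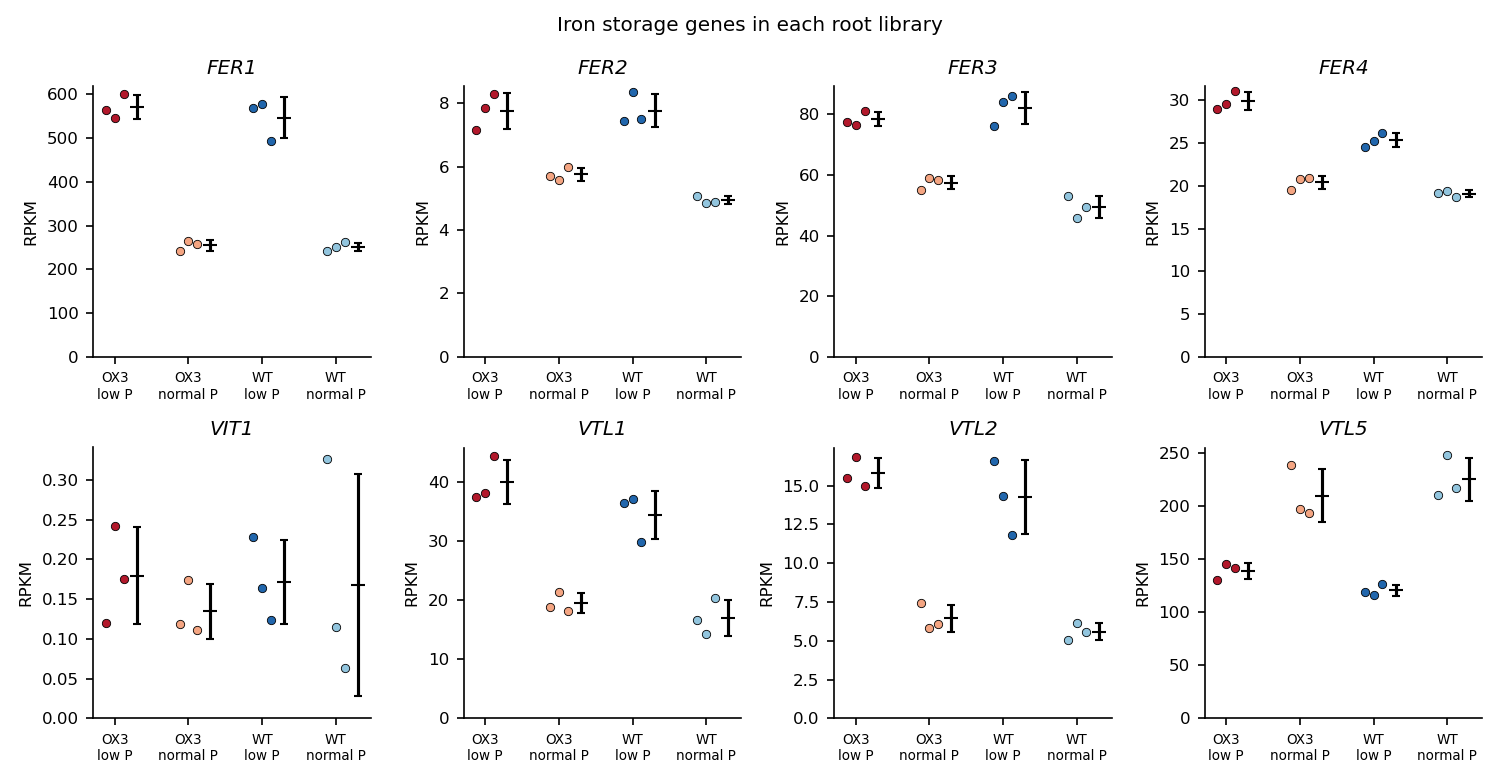
Level of each of the 8 genes in RPKM (vertical axes, each from 0) in OX3 and wild-type roots at low and normal phosphate (P). Points are single libraries and bars are the mean ± SD of 3 libraries. The low phosphate libraries stand above the normal ones for FER1 to FER4, VTL1 and VTL2 and below them for VTL5, and VIT1 stays under 0.326 RPKM in every library.

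The transcriptomes came from tissue with the defining markers of root, and all 8 root markers examined, among them the endodermal regulator MYB36 and the root hair gene COBL9, were above 0 in every group. Their summed level was 4573 to 5244 RPKM in OX3 at low phosphate, 8166 to 8663 RPKM in OX3 at normal phosphate, 4572 to 5367 RPKM in wild type at low phosphate and 8587 to 10097 RPKM in wild type at normal phosphate, most of it from PYK10, a beta-glucosidase of root ER bodies, which fell in both genotypes while the other 7 rose. In the wild type the rises of CASP1, EXPA7 and SCR were lost in 4, 5 and 4 of 18 alternatives, each also in a fit of only the compared groups. Of 8 shoot photosynthesis markers, none was at 0 in all libraries of a group. Their sum was 210.2 to 243 RPKM in OX3 at low phosphate against 682 to 725 RPKM in OX3 at normal phosphate, and 183 to 212 RPKM in wild type at low phosphate against 451 to 521 RPKM in wild type at normal phosphate. At low phosphate 6 of the 7 shoot markers tested fell in each genotype and 0 rose. The part of this shift in the values of the iron genes was not tested. Seed storage markers summed to at most 2.33 RPKM in any library. In these bulk samples, fewer cells of a type and less RNA per cell cannot be told apart.

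FER1, the ferritin of vegetative tissue that responds most to iron, was the most abundant of the 8. In OX3 its level was 564, 547 and 601 RPKM at low phosphate, against 242, 265 and 258 RPKM at normal phosphate. In the wild type it was 569, 579 and 493 RPKM at low phosphate, against 243, 250.04 and 261 RPKM at normal phosphate. Every low phosphate library lay far above every normal phosphate library, and the lowest of them was wild-type replicate 4. The means were 2.24-fold apart in OX3, a log2 difference of 1.16 ± 0.07 (SE, limma adjusted p = 6.24e-09), and 2.17-fold apart in the wild type, a log2 difference of 1.11 ± 0.07 (SE, limma adjusted p = 9.48e-09). These values rest on 12587 to 16701 reads per library at low and 6453 to 7318 at normal phosphate. Among all 25941 genes FER1 ranked 79 to 115 by RPKM in the low phosphate libraries and 310 to 369 in the normal ones, rank 1 being the highest level. A noncoding gene on the opposite strand, AT5G01595, overlaps 656 of its exon bases. Its own level averaged 0.547 RPKM in OX3 at low and 0.852 RPKM in OX3 at normal phosphate, and 0.140 RPKM in wild type at low and 0.397 RPKM in wild type at normal phosphate. Since it is not stated that strand was used in counting, reads of the pair cannot be told apart.

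FER3 and FER4, ferritins of leaf and root tissue of which FER4 is also known from mitochondria, rose too, with smaller estimated differences. FER3 had 77.4, 76.6 and 81.0 RPKM in OX3 at low phosphate, against 55.2, 59.0 and 58.3 RPKM in OX3 at normal phosphate. In the wild type FER3 had 76.2, 84.2 and 85.9 RPKM at low phosphate, against 53.0, 46.0 and 49.5 RPKM at normal phosphate. The phosphate groups did not overlap in either genotype, and the gap was wider in the wild type, with a log2 difference of 0.44 ± 0.06 in OX3 (SE, limma adjusted p = 3.93e-05) and of 0.72 ± 0.06 in the wild type (SE, limma adjusted p = 2.65e-07). FER4 had 29.0, 29.6 and 31.1 RPKM in OX3 at low phosphate, against 19.5, 20.8 and 20.9 RPKM in OX3 at normal phosphate. Its wild-type values were 24.5, 25.2 and 26.2 RPKM at low phosphate, against 19.1, 19.4 and 18.7 RPKM at normal phosphate. Here the phosphate groups were again apart, with the wider gap in OX3, and the log2 difference was 0.53 ± 0.05 in OX3 (SE, limma adjusted p = 1.28e-06) and 0.39 ± 0.05 in the wild type (SE, limma adjusted p = 2.71e-05). FER4 shares 118 exon bases with AT2G40290, a neighbour on the same strand whose group means were 54.1 to 58.3 RPKM, so reads there are uncertain.

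FER2, known as the ferritin of seeds, was the least abundant of the 4. It had 7.16, 7.85 and 8.28 RPKM in OX3 at low phosphate, against 5.70, 5.57 and 5.98 RPKM in OX3 at normal phosphate. In the wild type the level was 7.43, 8.37 and 7.51 RPKM at low phosphate, against 5.08, 4.86 and 4.88 RPKM at normal phosphate. All low phosphate libraries were above all normal ones, on 99 to 195 reads per library. The log2 difference was 0.37 ± 0.08 in OX3 (SE, limma adjusted p = 0.000938) and 0.56 ± 0.08 in the wild type (SE, limma adjusted p = 2.62e-05). The 1 seed marker above the minimum level, the seed storage albumin gene SESA4, was called higher at low phosphate as well. It averaged 1.43 ± 0.635 RPKM in OX3 at low phosphate and 0.581 ± 0.132 RPKM in OX3 at normal phosphate, and 1.45 ± 0.179 RPKM in wild type at low phosphate and 0.610 ± 0.202 RPKM in wild type at normal phosphate (SD, n = 3 each). Its limma adjusted p was 0.01003 in OX3 (0.0563 without OX3 low phosphate replicate 1) and 0.00838 in the wild type, and its part in the FER2 values was not tested.

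VTL1, a transporter of the vacuolar membrane, doubled its level at low phosphate in both genotypes. In OX3 it had 37.6, 38.1 and 44.4 RPKM at low phosphate, against 18.8, 21.5 and 18.3 RPKM at normal phosphate. The wild type had 36.5, 37.1 and 29.8 RPKM at low phosphate, against 16.6, 14.3 and 20.3 RPKM at normal phosphate. No low phosphate library reached down to the normal ones, and the lowest of them was wild-type replicate 4. The fold was 2.05 in OX3, a log2 difference of 1.00 ± 0.12 (SE, limma adjusted p = 5.65e-06), and 2.02 in the wild type, a log2 difference of 0.98 ± 0.12 (SE, limma adjusted p = 6.71e-06).

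VTL2, its closest relative, had the largest estimated log2 difference of the 7 members tested in both genotypes. FER1 was close, at 1.16 in OX3 and 1.11 in the wild type, so the SE does not set the 2 apart. Its level was 15.5, 16.9 and 14.99 RPKM in OX3 at low phosphate, against 7.45, 5.82 and 6.10 RPKM in OX3 at normal phosphate. In wild-type roots it was 16.6, 14.4 and 11.8 RPKM at low phosphate, against 5.06, 6.13 and 5.57 RPKM at normal phosphate. The groups were well apart, and again wild-type replicate 4 was the lowest low phosphate library. The means differed 2.45-fold in OX3, a log2 difference of 1.18 ± 0.11 (SE, limma adjusted p = 8.77e-07), and 2.55-fold in the wild type, a log2 difference of 1.203 ± 0.11 (SE, limma adjusted p = 6.87e-07).

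VTL5 went the other way. It had 130.3, 145 and 141 RPKM in OX3 at low phosphate, against 239, 197 and 194 RPKM in OX3 at normal phosphate. In the wild type there were 119, 116 and 126 RPKM at low phosphate, against 210.4, 248 and 217 RPKM at normal phosphate. Every low phosphate library was below every normal one. The mean fell by 33.8% in OX3, a log2 difference of -0.59 ± 0.08 (SE, limma adjusted p = 4.17e-05), and by 46.4% in the wild type, a log2 difference of -0.89 ± 0.08 (SE, limma adjusted p = 6.09e-07).

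VIT1 gave 1 to 6 reads per library, 9 in OX3 at low phosphate, 7 in OX3 at normal phosphate, 9 in wild type at low phosphate and 9 in wild type at normal phosphate when the 3 libraries of a group are summed. These levels, 0.0627 to 0.326 RPKM, stand around the 3 reads taken as the floor, which for a gene of 1 kb is 0.147 to 0.170 RPKM across libraries. No difference was detectable at this depth, and no fold is given. Of its exon bases, 98 overlap RR14, a response regulator gene on the opposite strand.

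**Figure D2:**
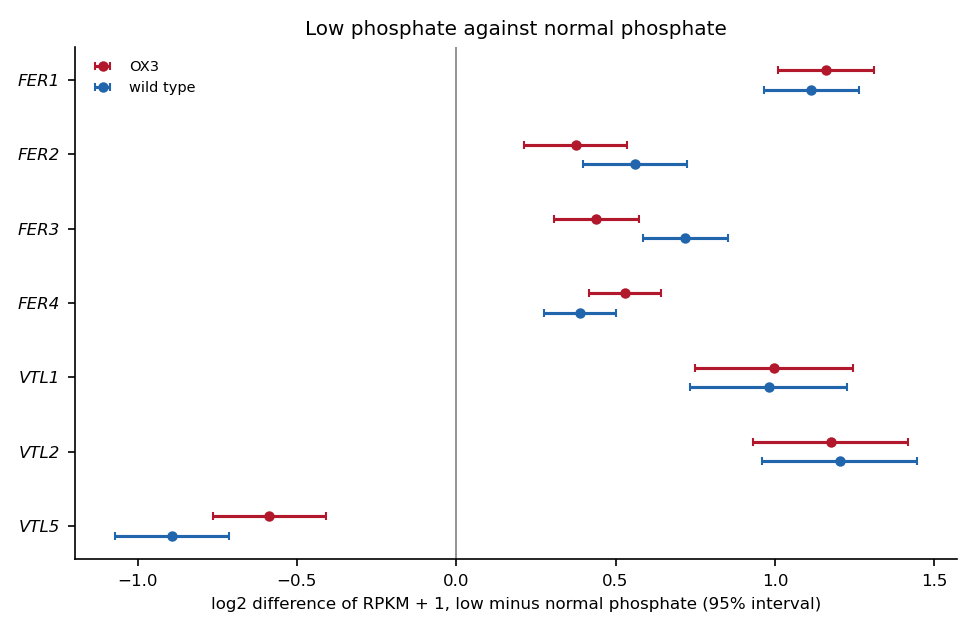
Log2 difference of RPKM + 1, low minus normal phosphate (horizontal axis), for the 7 members tested, with OX3 above the wild type in each pair. Points are limma estimates and bars their 95% intervals, and none of the 14 intervals reaches 0. The differences run from -0.59 (VTL5) to 1.18 (VTL2) in OX3 and from -0.89 to 1.203 for the same genes in the wild type.

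The relation between the genes also differed between phosphate levels. Within the ferritins the order of RPKM was FER1, FER3, FER4 and FER2 in every library, without overlap between neighbours. The share of FER1 in the ferritin sum was 82.8% to 83.3% in OX3 at low phosphate, against 75.0% to 75.6% in OX3 at normal phosphate. It was 80.5% to 84.0% in the wild type at low phosphate, against 75.8% to 78.2% at normal phosphate. So FER1 made up more of the family at low phosphate although its relatives rose as well, and the share of FER3 was smaller in all low phosphate libraries, at 11.2% to 11.6% in OX3 and 11.3% to 14.04% in the wild type, than in the normal ones, at 16.8% to 17.1% in OX3 and 14.4% to 16.6% in the wild type.

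Among the transporters the order was VTL5, VTL1, VTL2 and VIT1 in every library, again without overlap. Yet VTL5 made up 70.4% to 72.5% of the summed RPKM of the 3 VTL genes in OX3 at low phosphate, against 87.8% to 90.1% in OX3 at normal phosphate. In the wild type its share was 69.2% to 75.2% at low phosphate, against 89.3% to 92.4% at normal phosphate. VTL5 was 3.19 to 3.802 times as abundant as VTL1 in OX3 at low phosphate and 9.18 to 12.7 times in OX3 at normal phosphate. The VTL sum was smaller at low phosphate, at 183 to 201 RPKM in OX3 and 168 to 173 RPKM in the wild type, than at normal phosphate, at 218 to 265 RPKM in OX3 and 232 to 269 RPKM in the wild type, the fall of VTL5 being larger in RPKM than the rise of VTL1 and VTL2 together. The ferritin sum was 661 to 722 RPKM in OX3 at low phosphate against 322 to 350.3 RPKM in OX3 at normal phosphate. It was 612 to 697 RPKM in wild type at low phosphate against 320 to 335 RPKM in wild type at normal phosphate. The ferritin sum was thus 3.31 to 4.16 times the VTL sum in the low phosphate libraries and 1.19 to 1.58 times in the normal ones.

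**Figure D3:**
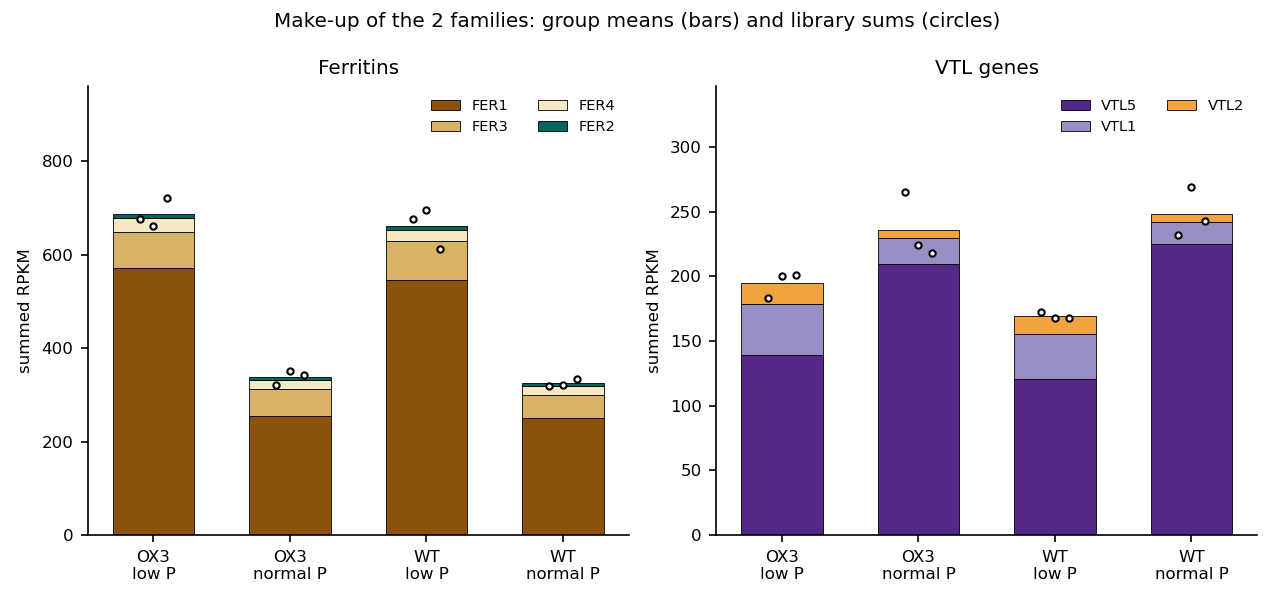
Summed RPKM of the ferritins (left) and of the 3 VTL genes (right) in each group. Stacked bars are group means of each gene and circles are the sums in single libraries. FER1 (lowest segment, left) fills most of the ferritin bars, whose sums reach 612 to 722 RPKM at low phosphate, and VTL5 (lowest segment, right) shrinks at low phosphate while VTL1 and VTL2 widen.

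Across the families, neighbours in the order of levels changed with phosphate. FER1 stood just above VTL5 at normal phosphate, where VTL5 reached 0.744 to 0.994 of the FER1 level in a library, and VTL5 was only 0.201 to 0.265 of it at low phosphate. VTL1 stood above FER4 in every low phosphate library of its own genotype, and their ranges overlapped at normal phosphate in both genotypes. VTL2 and FER2 showed the same: VTL2 was higher without overlap at low phosphate, and their ranges overlapped at normal phosphate.

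Between genotypes no member passed the test at either phosphate level. At normal phosphate 0 of the 7 members tested passed in OX3 against the wild type by limma, where 3.1% of all genes passed (587 genes, 259 higher and 328 lower, or 206 higher and 400 lower with median-ratio scaling). Unadjusted, 2 of the 7 members had p below 0.05, as did 24.1% of all tested genes (4559), so the members' share was near the background. Limma voom on recovered reads also called 0. FER3 had the smallest p of the members, with 57.5 ± 2.03 RPKM in OX3 and 49.5 ± 3.54 RPKM in the wild type (SD, n = 3 each). Its libraries did not overlap between genotypes, and the log2 difference was 0.21 (95% interval 0.08 to 0.35, limma adjusted p = 0.0679). This value missed the threshold but passed it without wild-type replicate 2 at normal phosphate (limma adjusted p = 0.0363) and without wild-type replicate 2 at low phosphate (limma adjusted p = 0.0425), and ranged from 0.0363 to 0.216 over the 18 alternatives run. FER2, at 5.75 ± 0.210 RPKM in OX3 and 4.94 ± 0.119 RPKM in the wild type (SD, n = 3 each), had a log2 difference of 0.19 (95% interval 0.02 to 0.35, limma adjusted p = 0.156). FER1 differed by 0.02 (95% interval -0.13 to 0.17, limma adjusted p = 0.892), and VTL5 by -0.10 (95% interval -0.28 to 0.07, limma adjusted p = 0.466). The libraries of FER2, FER3 and FER4 did not overlap between genotypes and those of VIT1 and the other 4 tested members did, while 32.8% of all tested genes did not overlap, so these 3 of 7 are not a result about the members. In the same comparison 5 of 7 shoot photosynthesis markers were called higher in OX3, each of them no longer so without OX3 normal phosphate replicate 4, and their part in the ferritin values was not tested.

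At low phosphate too, 0 of 7 members passed in OX3 against the wild type by limma, where 0.0423% of all genes passed, and voom called 0. Again 2 of the 7 had an unadjusted p below 0.05, where 14.7% of all tested genes did (2787). FER4, VTL1 and VTL5 had libraries that did not overlap between genotypes, as did 17.1% of all tested genes. FER4 averaged 29.9 ± 1.04 RPKM in OX3 and 25.3 ± 0.812 RPKM in the wild type (SD, n = 3 each), with the OX3 libraries higher. Its log2 difference was 0.23 (95% interval 0.12 to 0.34, limma adjusted p = 0.163). VTL5 had 139 ± 7.62 RPKM in OX3 and 121 ± 5.22 RPKM in the wild type (SD, n = 3 each), for a log2 difference of 0.20 (95% interval 0.02 to 0.38, limma adjusted p = 0.293). VTL1 was also above the wild type in all OX3 libraries, with a log2 difference of 0.21 (95% interval -0.04 to 0.46, limma adjusted p = 0.404). For FER1 the difference was 0.06 (95% interval -0.09 to 0.22, limma adjusted p = 0.699). A p that misses the threshold does not show that the genotypes are alike, and these intervals leave room for differences of up to 0.46 on the log2 scale.

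Whether the response to phosphate itself differed between genotypes was tested as an interaction. Of all genes, 0% passed (limma, voom 0), and so did 0 of the 7 members. Unadjusted, 2 of the 7 members had p below 0.05, as did 1351 of the 18910 genes tested, and no test over the members was run. FER3 responded by 0.28 less in OX3 than in the wild type, a log2 interaction of -0.28 ± 0.09 (SE, limma adjusted p = 0.623). The fall of VTL5 was smaller in OX3, with an interaction of 0.31 ± 0.12 (SE, limma adjusted p = 0.669). Those of FER1, VTL1 and VTL2 were 0.04, 0.02 and -0.03 on the log2 scale.

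**Figure D4:**
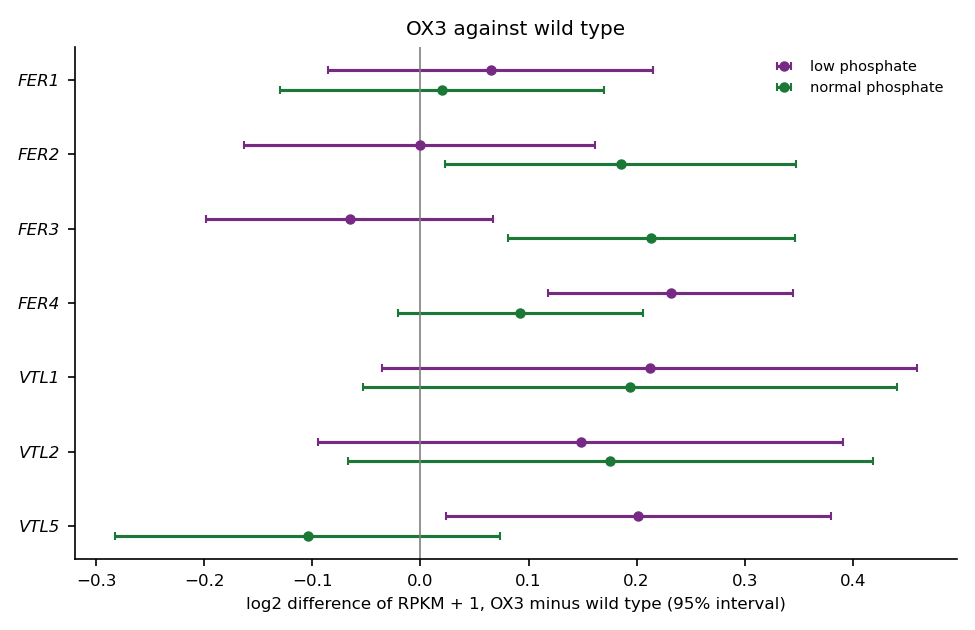
Log2 difference of RPKM + 1, OX3 minus wild type (horizontal axis), for the 7 members tested, at low phosphate (upper of each pair) and normal phosphate (lower). Points are limma estimates and bars their 95% intervals. The intervals of FER4 and VTL5 at low phosphate and of FER2 and FER3 at normal phosphate do not reach 0, but after adjustment over 18910 genes 0 members passed.

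Other genes of iron handling, from lists drawn up for this comparison, moved in mixed directions. Of 15 iron regulators tested, 4 rose and 11 fell at low phosphate in OX3, and 2 rose and 11 fell in the wild type. Their median log2 difference was -0.62 in OX3 and -0.58 in the wild type. In OX3 the rises of PYE (limma adjusted p = 0.0167) and bHLH104 (limma adjusted p = 0.0306) were lost in 2 and 4 of 18 alternatives. The rise of URI in the wild type was lost in 1. FIT, the master regulator of iron uptake in the root epidermis, averaged 9.31 ± 1.04 RPKM at low phosphate and 45.7 ± 3.39 RPKM at normal phosphate in OX3 (SD, n = 3 each), a log2 difference of -2.18 (limma adjusted p = 2.32e-09). The peptide gene IMA2, known to rise when iron is short, fell by 2.18 in OX3 and by 1.96 in the wild type on the log2 scale. BTSL1, an E3 ligase that restrains iron uptake, fell as well, by 1.25 in OX3 and 1.43 in the wild type. bHLH115, a factor upstream of FIT, fell by 0.71 in OX3 and 0.82 in the wild type. Thus genes that promote uptake and genes that restrain it were both among those that fell while the ferritins rose.

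Of 6 iron uptake genes tested, 1 rose and 2 fell in each genotype. IRT1, the main root iron transporter, was listed at 0 in all low phosphate libraries of both genotypes, against 3.76 to 4.90 RPKM in OX3 and 2.24 to 5.02 RPKM in the wild type at normal phosphate. NRAMP1, a manganese and iron transporter, fell by 0.97 in OX3 and 1.10 in the wild type, whereas IRT2 rose by 1.27 in OX3 and 1.55 in the wild type on the log2 scale (limma adjusted p = 3.67e-05 in OX3 and 5.17e-06 in the wild type).

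Other transporters of the vacuolar membrane did not share 1 direction with VTL1 and VTL2. Of 6 tested, 2 rose and 2 fell in each genotype. ZIF1, which moves the chelator nicotianamine into the vacuole, averaged 23.9 ± 1.07 RPKM at low phosphate and 9.74 ± 0.284 RPKM at normal phosphate in OX3 (SD, n = 3 each). Its log2 difference was 1.21 in OX3, with a limma adjusted p of 5.68e-08, and 1.35 in the wild type, with one of 1.81e-08. FPN2, a ferroportin that loads metals into root vacuoles, fell by 1.34 in OX3 and 1.38 in the wild type. NRAMP3, which releases vacuolar iron, rose by 0.22 in OX3 and 0.33 in the wild type, and in OX3 it was not called without low phosphate replicate 1 or without normal phosphate replicate 2 (limma adjusted p up to 0.1005). The zinc transporter MTP3 fell by 0.52 in OX3 and 0.54 in the wild type. The family's remaining genes were below the minimum level for the test. VTL3 averaged 1.84 ± 0.196 RPKM in OX3 at low phosphate and 0.283 ± 0.206 RPKM in OX3 at normal phosphate, and 1.06 ± 0.191 RPKM in wild type at low phosphate and 0.253 ± 0.257 RPKM in wild type at normal phosphate (SD, n = 3 each), and VTL4 did not exceed 0.299 RPKM in any library.

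Among 9 genes of long-distance iron transport tested, 3 rose and 4 fell in each genotype. The nicotianamine synthase NAS3 rose by 2.25 in OX3 and 2.68 in the wild type on the log2 scale, while NAS1 fell by 2.15 in OX3 and 2.39 in the wild type, and NAS4 fell by 2.01 in OX3 and 1.90 in the wild type. OPT3, a phloem iron transporter, fell by 1.72 in OX3 and 1.70 in the wild type, and FRD3, which exports citrate into the xylem, rose by 1.55 in OX3 and 1.36 in the wild type. Then 13 genes of organelle iron import and iron-sulfur cluster assembly were tested, which include the plastid machinery next to the ferritins. Of these, 1 rose and 5 fell in OX3 and 0 rose and 5 fell in the wild type. Their median log2 difference was -0.13 in OX3 and -0.07 in the wild type. The falls of SUFD, SUFB and FPN3 in both genotypes, and of NFU2 in OX3, were kept in all 18 alternatives. Other calls lay near the threshold. The rise of NFS1 in OX3 (limma adjusted p = 0.0487) was lost in 8 of 18 alternatives. The falls of SUFC in OX3 (limma adjusted p = 0.0444) and NFU2 in the wild type (limma adjusted p = 0.0429) were lost in 12 each. In the wild type, the fall of SUFC was lost in 4.

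**Figure D5:**
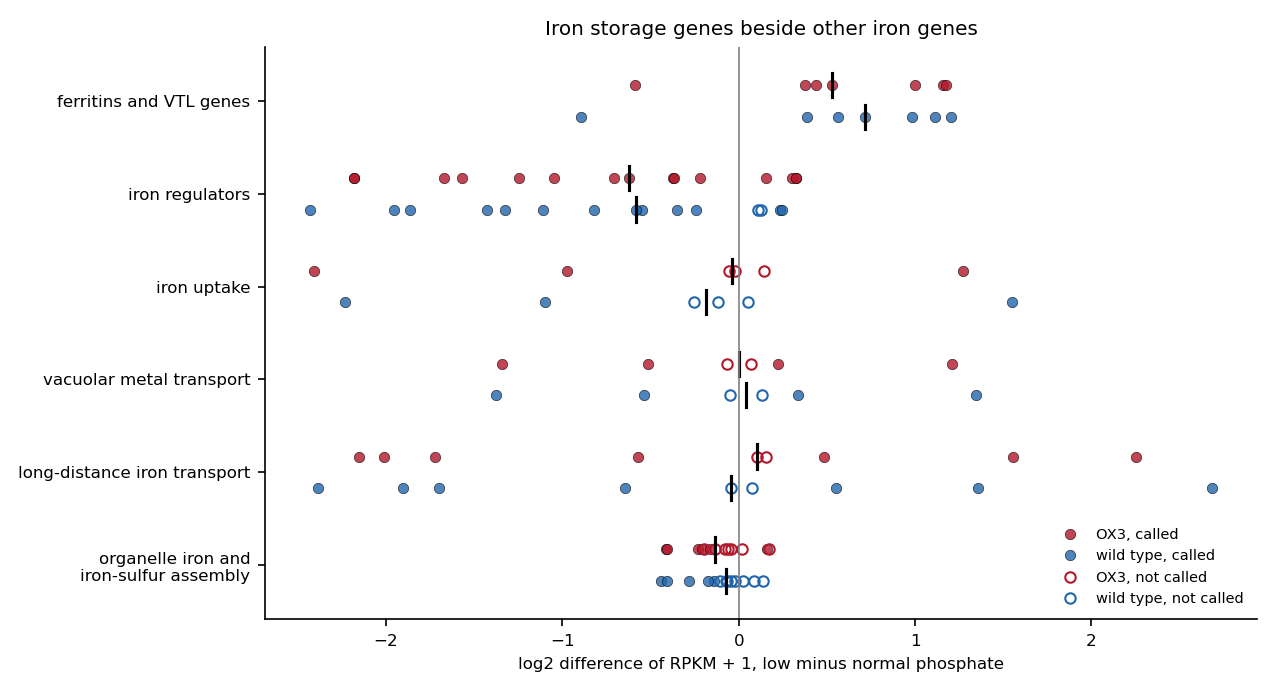
Log2 difference of RPKM + 1, low minus normal phosphate (horizontal axis), for the 7 ferritins and VTL genes tested and for tested genes of 5 lists of iron handling, OX3 above the wild type in each row. Filled points passed the limma test, open points did not, and black ticks are medians. Ferritins and VTL genes sit at 0.37 to 1.203 but for VTL5, while iron regulators have medians of -0.62 in OX3 and -0.58 in the wild type.

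Of 8 phosphate response regulators, 4 rose and 2 fell in OX3 and 4 rose and 1 fell in the wild type. The fall of SPX4 in OX3 (limma adjusted p = 0.0397) was lost in 7 of 18 alternatives. SPX1, a phosphate sensor that restrains PHR1, averaged 1156 ± 11.02 RPKM in OX3 at low phosphate and 9.17 ± 1.19 RPKM in OX3 at normal phosphate, and 1030.2 ± 126 RPKM in wild type at low phosphate and 10.0 ± 1.74 RPKM in wild type at normal phosphate (SD, n = 3 each). The transcript of PHR1, whose recognition letters stand before the FER1 start codon, was not called, with a log2 difference of -0.10 in OX3 (limma adjusted p = 0.112) and -0.06 in the wild type (limma adjusted p = 0.38). Of 11 clock genes tested, 7 rose and 1 fell in OX3 and 5 rose and 1 fell in the wild type. The list was taken because FER1 is known to be linked to the clock regulator TIC. In OX3 the rise of ELF4 (limma adjusted p = 0.0158) was lost in 2 of the 17 alternatives run for it. TIC itself rose at low phosphate in OX3, with a log2 difference of 0.45 (limma adjusted p = 0.00732), and was not called in the wild type, with 0.06 (limma adjusted p = 0.713). At normal phosphate TIC was lower in OX3 than in the wild type, at 19.9 ± 2.02 RPKM in OX3 and 30.6 ± 4.00 RPKM in the wild type (SD, n = 3 each), a log2 difference of -0.59 (limma adjusted p = 0.0269). This call was lost without filtering and when replicate 3 or 4 of either genotype at normal phosphate was left out (limma adjusted p up to 0.132). The genotype difference in its low phosphate response was not called (limma adjusted p = 0.693).

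For each tested member, the 3 genes outside the group with the most similar profile were found by Pearson's r of log2(RPKM + 1) over the 12 libraries, given as a description since all points share the phosphate treatment. FER1 was most similar to AT3G59710 (r = 0.998), MIR399d (r = 0.997), a precursor of the microRNA that targets the PHO2 transcript, and AT5G19890 (r = 0.997). For VTL2 the closest were AT2G36630 (r = 0.994), AT2G37870 (r = 0.991) and AT1G22065 (r = 0.990). VTL1 was nearest to AT3G20340 (r = 0.988), AT2G32150 (r = 0.987) and PGDH (r = 0.986). VTL5, the member that fell, was nearest to PLP9 (r = 0.986), NRT1.5 (r = 0.982), which loads nitrate into the xylem, and AT1G18197 (r = 0.982). For FER2 the nearest were AT3G53730 (r = 0.987), SBP1 (r = 0.984) and AT5G10160 (r = 0.980). FER3 was nearest to TPPJ (r = 0.985), a trehalose phosphate phosphatase, FBP (r = 0.984) and AT4G22230 (r = 0.983). FER4 was nearest to FPF1 (r = 0.992), AT5G25490 (r = 0.979) and RHA3A (r = 0.979). After the group means were taken out, r of these 21 pairs was 0.33 (FER4 with RHA3A) to 0.93 (VTL1 with PGDH). The pairs had been picked by r in the same 12 libraries, which raises these values by an amount that was not measured. They therefore cannot tell whether there is likeness beyond the treatment. Between the members themselves, not picked by r, it ran from -0.88 (FER3 with VTL2) to 0.75 (FER1 with VTL1).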

How the data were processed

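Roots of 12 Arabidopsis samples had been sequenced from total RNA through libraries from a BGI kit, per the labels' protocols. The authors deposited 1 table of RPKM values with annotation columns. The submitters' processing notes name HTSeq 0.6.0 and TAIR10 without a role. The aligner, the strand setting and whether reads or pairs were counted are not given in the sources used here. Of 25941 genes, 25688 were found in RefSeq's TAIR10.1 table, 25683 at identical positions. With exon-union lengths, 25547 genes gave whole reads in every library (99.45% of genes with a matching length, tolerance 0.01 read), and the recovered library totals were 17670350 to 20418541 reads. Floors cover counting error only.

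Groups were taken from the sample titles. Log2(RPKM + 1) was tested two-sided with limma 3.58.1 (R 4.3.3), its prior following the mean-variance trend, with all 4 groups in 1 fit and Benjamini-Hochberg adjustment over the 18910 genes whose mean reached 1 RPKM, leaving out 7031. Fold changes on this scale understate those of low genes. SE and intervals (95%) are limma's, and SD is over the 3 libraries of a group. No label states that the replicates are separate plants or cultures, so p-values reflect only how these samples scatter, which may be technical. No pair of libraries was identical, and the libraries of a group differed by more than counting noise.

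The members and lists were chosen with earlier results of these data known. The lists, 11 with 120 entries of which 117 are in the table, covered iron regulators, iron uptake, vacuolar metal transport, long-distance iron transport, organelle iron and iron-sulfur assembly, antioxidant enzymes, phosphate response regulators, the clock, and root, shoot and seed markers. Named were all members, up to 4 genes per list with the smallest adjusted p in each low phosphate comparison, and 3 genes most similar to each member. PHR1, TIC, VTL3, VTL4, NFS1, CSD1, CAT2, CASP1, EXPA7, SCR, SPX4, PYE, bHLH104, URI and ELF4 were named outside that rule, after their values were seen. Alternatives were a pseudocount of 0.1, no filter, median-ratio scaling, blocking on the replicate number, fitting only the compared groups, leaving out each library, and limma voom on recovered reads. The scripts were tested on simulated data. Sequences were read from the RefSeq genome of TAIR10.1 with Biopython 1.88.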

Additional observations from a re-analysis of the deposited data

How the results depend on the processing

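The 7 low phosphate calls among the members were kept in both genotypes under all 18 alternatives run, with the largest adjusted p of 0.0053 for FER2 in OX3. In OX3 against the wild type at normal phosphate, the count over all genes was 587. It was 152 without the filter, 1087 in a fit of only the compared groups and 1132 with limma voom. Leaving out single libraries moved it between 8 and 1059: it was 8, 37 and 369 without OX3 normal phosphate replicates 4, 3 and 2, 39, 66 and 1059 without wild-type normal phosphate replicates 4, 3 and 2, 347 and 1032 without OX3 low phosphate replicates 2 and 4, and 1047 without wild-type low phosphate replicate 2. The members called there were 0 to 1 (FER3). In OX3 against the wild type at low phosphate the count was 8, with 5 under median-ratio scaling, 2 with only the compared groups, and 3 to 196 when single libraries were left out. The highest came without wild-type low phosphate replicate 2, and all others were 8 or below. The genotype difference in the response had 0 to 1 genes, with 1 without OX3 low phosphate replicate 4. The causes were not tested.

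Same-numbered libraries correlated at -0.14 to 0.12 in their deviations from the group means, so the numbers were not taken as pairs. With the replicate block, 225 genes were called in OX3 against the wild type at normal phosphate, and the block changed no call among the members. Of the genes named beside them, TIC was no longer called at low phosphate in OX3 with the block (limma adjusted p = 0.0665), nor in OX3 against the wild type at normal phosphate. The block also ended the low phosphate calls of NFS1, SUFC, CSD1, SPX4 and ELF4 in OX3 and of NFU2 in the wild type. Depth limits VIT1 (1 to 6 reads per library).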

Other observations

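Enzymes that remove reactive oxygen species, the hazard that ferritin-bound iron does not feed, changed in both directions at low phosphate. Of 12 tested, 4 rose and 4 fell in OX3, and 3 rose and 4 fell in the wild type. In OX3 the rise of CSD1 (limma adjusted p = 0.0478) was lost in 12 of 18 alternatives. The fall of CAT2 there (limma adjusted p = 0.0211) was lost in 4. CAT3, a catalase, averaged 281 ± 4.12 RPKM in OX3 at low phosphate and 205 ± 9.59 RPKM in OX3 at normal phosphate, and 286 ± 7.30 RPKM in wild type at low phosphate and 200.5 ± 8.49 RPKM in wild type at normal phosphate (SD, n = 3 each; limma adjusted p = 6.01e-06 in OX3 and 1.9e-06 in the wild type). CSD2, the plastid copper/zinc superoxide dismutase, averaged 125 ± 8.51 RPKM in OX3 at low phosphate and 189 ± 4.83 RPKM in OX3 at normal phosphate, and 118 ± 3.99 RPKM in wild type at low phosphate and 184 ± 6.87 RPKM in wild type at normal phosphate (SD, n = 3 each; limma adjusted p = 8.14e-07 in OX3 and 3.74e-07 in the wild type).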
